A study of Mus musculus with 4 samples.

Results

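The genes described here are the cytokine gene Tnf, its receptor genes Tnfrsf1a and Tnfrsf1b, the inhibitor and feedback genes Tnfaip3, Nfkbia and Nfkbiz, and the NF-kB subunit genes Nfkb1, Nfkb2, Rel and Relb. They were taken from the deposited matrices by gene symbol and are 10 of 32285 genes. The group was chosen with earlier results of these data known. Together they held 189416 UMIs (unique molecular identifiers, each counting 1 captured transcript end) in the cells kept.

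Cells were profiled by droplet-based single-cell RNA sequencing of transcript 3' ends from C57BL/6 mouse brain, in the hemisphere opposite to an injection made 2 weeks earlier. The old tumour group was 93 weeks old and had received 1000 CT2A-GFP-luc cells, a mouse glioblastoma line carrying fluorescent and luciferase reporters, and the old sham group was 93 weeks old and had received PBS. The young tumour group was 8 weeks old with the same tumour cells, and the young sham group was 8 weeks old with PBS. Every group was thus injected into the brain and dissociated with the same enzymatic kit, each had 1 library, and how many mice stand behind one is not stated in the labels. There were no replicates, so no difference was tested, and the intervals below, all at 95%, cover counting error alone.

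Tumour necrosis factor is a cytokine that microglia and other macrophages release within hours of an inflammatory stimulus. It acts through one receptor found on most cell types (Tnfrsf1a) and a second one more restricted to immune and endothelial cells (Tnfrsf1b). Receptor signals free dimers of NF-kB subunits from inhibitors of the IκB family, and the dimers enter the nucleus and bind DNA motifs called κB sites. Genes switched on in this way include Tnf itself and several of the pathway's own brakes, among them Nfkbia and Tnfaip3, so messenger RNA of those brakes is widely read as a trace of recent pathway activity. Microglia, the resident macrophages of the brain, are its main source of Tnf, and dissociation of tissue into single cells can itself switch on early-response genes in them.

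The libraries held 76652484 UMIs in 11330 barcodes (old tumour), 62726818 in 10665 (old sham), 75924528 in 12032 (young tumour) and 64464413 in 12070 (young sham). Filters on cell quality and doublets left 9829, 9529, 10461 and 10571 cells in the same order, with median depths of 3773 to 4858 UMIs per cell and median mitochondrial shares of 3.30% to 4.76%. Any pair of libraries shared 27 to 53 cell barcodes. Cells were assigned to a cell type by a gate on marker genes that contained none of the 10 genes, and 37042 of 40390 cells (91.7%) entered 1 of 22 gates, of which 11 had at least 50 cells in every library. The microglia gate held 2425 old tumour, 2508 old sham, 3020 young tumour and 3709 young sham cells. Its leading genes included P2ry12, Cx3cr1, Gpr34, Siglech and Tmem119, markers of microglia, and 7 of its 10 leading genes were on the microglia marker list. The marker list was summed at 20850 CPM in old tumour, 20073 in old sham, 22044 in young tumour and 26407 in young sham cells of the gate. CPM is the usual depth-scaled count, here a gene's UMIs relative to all UMIs of the gate in that library. When the cells were clustered, the clusters within the gate included one led by Tnf, Gadd45b and Il1b. Another was led by Snhg20 and also had P2ry12 among its leading genes. That clustering used 3 of the 10 genes, Tnf among them, so cluster sizes are not compared between libraries.

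Promoter sequences are shown for those genes that differed by at least 1.5-fold with age in sham microglia, since κB sites are what NF-kB dimers bind. RefSeq (GRCm38.p6) start sites were matched for 7 of the 10 genes, and Nfkbiz, Nfkb1 and Relb are named only. Each line gives the 250 bases before a start site, 5′ to 3′ on the gene's own strand, and capitals mark every match to the κB consensus on either strand, overlapping matches merged. The windows are chr17:35202008-35202257 (minus strand) for Tnf, chr12:55492648-55492897 (minus strand) for Nfkbia, chr10:19015411-19015660 (minus strand, the first of 2 listed starts) for Tnfaip3, chr11:23770970-23771219 (minus strand) for Rel and chr19:46304487-46304736 (plus strand, the first of 3 listed starts) for Nfkb2.
Tnf: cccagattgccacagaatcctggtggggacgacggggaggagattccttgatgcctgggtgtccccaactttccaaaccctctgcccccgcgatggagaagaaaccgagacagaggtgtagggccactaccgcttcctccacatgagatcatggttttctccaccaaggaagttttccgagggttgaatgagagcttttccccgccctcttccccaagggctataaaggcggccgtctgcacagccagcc
Nfkbia: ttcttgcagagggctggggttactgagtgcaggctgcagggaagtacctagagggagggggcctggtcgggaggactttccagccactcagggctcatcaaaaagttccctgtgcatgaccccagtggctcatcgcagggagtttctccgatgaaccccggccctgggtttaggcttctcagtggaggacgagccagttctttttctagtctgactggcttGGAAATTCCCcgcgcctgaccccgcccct
Tnfaip3: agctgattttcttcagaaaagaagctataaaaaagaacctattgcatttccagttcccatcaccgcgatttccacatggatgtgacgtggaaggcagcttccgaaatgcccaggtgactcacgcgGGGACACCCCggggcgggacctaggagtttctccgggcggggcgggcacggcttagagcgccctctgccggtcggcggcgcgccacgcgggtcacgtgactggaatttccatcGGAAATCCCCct
Rel: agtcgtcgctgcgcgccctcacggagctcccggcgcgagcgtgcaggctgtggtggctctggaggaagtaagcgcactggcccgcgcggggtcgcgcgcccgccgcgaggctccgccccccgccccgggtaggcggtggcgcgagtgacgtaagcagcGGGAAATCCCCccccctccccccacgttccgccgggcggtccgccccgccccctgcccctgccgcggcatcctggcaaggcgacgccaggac
Nfkb2: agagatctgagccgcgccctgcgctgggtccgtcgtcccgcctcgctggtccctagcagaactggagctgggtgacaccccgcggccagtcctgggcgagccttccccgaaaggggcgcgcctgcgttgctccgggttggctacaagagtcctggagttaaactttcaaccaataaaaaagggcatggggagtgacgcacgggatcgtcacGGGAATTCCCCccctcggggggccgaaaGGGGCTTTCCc

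Counting back from the start site, the Nfkbia window held a κB match at bases -29 to -20, that of Tnfaip3 at -125 to -116 and at -12 to -3, that of Rel at -92 to -82, and that of Nfkb2 at -39 to -29 and at -11 to -2. The Tnf window held no κB match and had TATAAA at bases -29 to -24, that of Tnfaip3 had it at -225 to -220, and the windows of Tnfrsf1a and Tnfrsf1b held no κB match. Of 32851 mouse start sites, 7.25% had a κB match in the same 250 bases and 12.4% a TATAAA on either strand. TGANTCA, an AP-1-type motif found in 6.75%, stood upstream of the first Tnfaip3 start and the second Nfkb2 start. The other listed Nfkb2 starts, not printed, had κB matches at bases -236 to -227 (the second) and -225 to -216 (the third). The second also had one at bases 11 to 20 after its start. The second listed Tnfaip3 start, not printed either, had no κB match. These are matches of letters in one window and do not show binding.

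Within microglia, Tnf and the inhibitor genes were higher in old than in young mice of the same treatment, by 9.76-fold (Tnf) and 3.37- to 4.91-fold (inhibitors) in sham and by 5.05-fold and 1.81- to 2.38-fold in tumour-bearing mice, and lower in tumour-bearing than in sham mice of either age. In young mice the inhibitor genes were not lower with a tumour among cells with few early-response UMIs, a comparison given further on. Young tumour stood there at 166 CPM against 134 in young sham for Nfkbia, 26.7 against 24.9 for Tnfaip3 and 18.9 against 10.9 for Nfkbiz. The old sham library was the highest of the 4 for Tnf, Nfkbia, Nfkbiz, Tnfaip3, Rel, Nfkb2 and Relb. The receptor genes, Nfkb1 and Relb differed by less than 1.5-fold in each of the 4 contrasts. A ratio of at least 1.5 either way is called higher or lower below, a descriptive threshold and not a test.

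**Figure D1:**
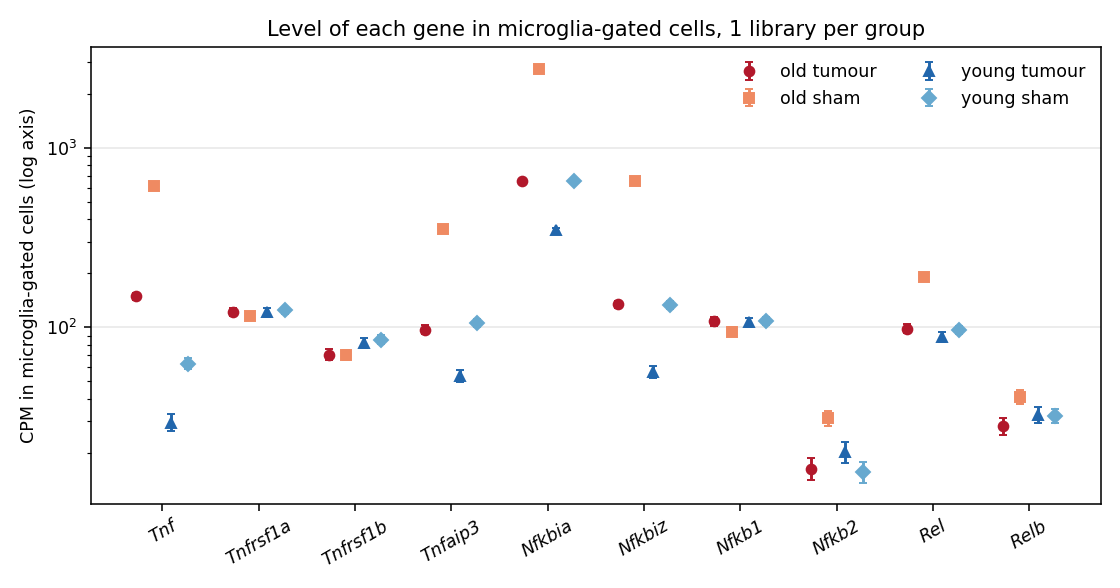
Level of each of the 10 genes in microglia-gated cells (CPM, log axis), with 1 point per library and bars for the 95% Poisson interval of the summed count. The old sham point stands above the other 3 for Tnf, Tnfaip3, Nfkbia, Nfkbiz, Nfkb2, Rel and Relb, and the 4 points of Tnfrsf1a lie between 116 and 125 CPM.

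Tnf (ENSMUSG00000024401, chromosome 17, 35199381 to 35202007, minus strand, GRCm38), the ligand, was at 149 CPM in old tumour microglia (1784 UMIs), 614 in old sham (7861 UMIs), 29.4 in young tumour (328 UMIs) and 62.9 in young sham (865 UMIs). Both old libraries were above both young ones, and at each age the tumour library was below its sham. The ratio of old sham over young sham was 9.76 (9.10 to 10.5), and that of old tumour over young tumour was 5.05 (4.49 to 5.70). Tumour over sham came to 0.242 (0.230 to 0.255) in old mice and 0.468 (0.411 to 0.532) in young mice. Among cells with few early-response UMIs, a comparison given further on, the young difference was within 1.5-fold, and so were those of the 3 inhibitor genes for old tumour over young tumour.

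The share of microglia with any Tnf UMI was 16.1% in old tumour, 50.7% in old sham, 5.43% in young tumour and 8.20% in young sham. Because cells differed in depth, each was also thinned to 1000 UMIs, which left out 55, 63, 142 and 187 cells of those libraries. The thinned shares were 6.88% (5.89 to 7.97) in old tumour, 27.3% (25.5 to 29.1) in old sham, 1.84% (1.38 to 2.40) in young tumour and 3.04% (2.50 to 3.66) in young sham (exact Clopper-Pearson intervals). The order of the libraries was thus the same for shares of cells and for summed counts. Oligodendrocytes, which are not known to make Tnf, gave a background for free RNA: their thinned share was 0.21% in old sham (5 of 2372 cells) and 0.11% in young sham (1 of 944 cells). Other large gates of old sham had higher shares: 0.48% of 1679 astrocytes, 0.46% of 659 endothelial cells and 0.39% of 512 choroid plexus epithelial cells. Ependymal cells (81), neuroblasts (85) and neurons (89) of old sham had no Tnf UMI. After thinning, no oligodendrocyte of 1701 in old tumour or 1210 in young tumour had a Tnf UMI, which allows thinned shares of up to 0.176% and 0.248%. Median depths before thinning were 4686, 4948, 3196 and 3615 UMIs in microglia and 5837, 5087, 5633 and 6431 in oligodendrocytes of old tumour, old sham, young tumour and young sham.

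Tnf counts were concentrated in few cells outside the old sham library. The 5 microglia with the most Tnf UMIs held 10.7% of the gene's UMIs in old tumour, 4.16% in old sham, 14.9% in young tumour and 20.8% in young sham. One young sham cell held 50 of the 865 UMIs there, and the highest counts per cell were 42 in old tumour, 71 in old sham and 12 in young tumour. Tnfrsf1a, by contrast, reached no more than 6 UMIs in any microglia, and its top 5 cells held 1.17% to 1.79% of its counts.

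Nfkbia (ENSMUSG00000021025, chromosome 12, 55489410 to 55492647, minus strand) encodes IκBα, which holds NF-kB dimers in the cytoplasm and is resynthesised after activation. It was at 653 CPM in old tumour microglia, 2762 in old sham, 349 in young tumour and 654 in young sham. Old tumour and young sham could not be told apart, while old sham stood far above and young tumour below them. The ratio was 4.22 (4.13 to 4.32) for old sham over young sham, 1.87 (1.80 to 1.95) for old tumour over young tumour, 0.237 (0.231 to 0.242) for old tumour over old sham and 0.534 (0.514 to 0.554) for young tumour over young sham. After thinning, 28.6% of old tumour, 68.8% of old sham, 22.5% of young tumour and 29.7% of young sham microglia had an Nfkbia UMI.

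Nfkbiz (ENSMUSG00000035356, chromosome 16, 55811375 to 55838899, minus strand) encodes IκBζ, a nuclear IκB protein that is induced by NF-kB and helps to switch on secondary response genes. It was at 134 CPM in old tumour microglia, 655 in old sham, 56.5 in young tumour and 133 in young sham. Its pattern over the libraries was that of Nfkbia, with old tumour and young sham side by side. The ratio reached 4.91 (4.67 to 5.17) for old sham over young sham and 2.38 (2.17 to 2.61) for old tumour over young tumour, and tumour over sham was 0.205 (0.194 to 0.216) in old and 0.424 (0.387 to 0.465) in young mice.

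Tnfaip3 (ENSMUSG00000019850, chromosome 10, 19000910 to 19015657, minus strand) encodes a ubiquitin-editing enzyme that shuts off signalling below the receptors. It was at 97.1 CPM in old tumour microglia, 356 in old sham, 53.7 in young tumour and 106 in young sham. Old tumour and young sham were again close, with intervals of 91.6 to 103 CPM and 100.3 to 111 CPM. The ratio was 3.37 (3.17 to 3.57) for old sham over young sham, 1.81 (1.64 to 2.0) for old tumour over young tumour, 0.273 (0.256 to 0.291) for old tumour over old sham and 0.508 (0.461 to 0.559) for young tumour over young sham.

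The subunit genes differed less, and mainly through the old sham library. Rel (ENSMUSG00000020275, chromosome 11, 23736847 to 23770970, minus strand), the subunit best known from activated lymphocytes and myeloid cells, was at 98.5 CPM in old tumour microglia, 190.0 in old sham, 88.6 in young tumour and 97.1 in young sham. Its ratio was 1.96 (1.83 to 2.09) for old sham over young sham and 0.518 (0.483 to 0.556) for old tumour over old sham, and the other contrasts stayed within 1.5-fold. Nfkb2 (ENSMUSG00000025225, chromosome 19, 46304320 to 46312385, plus strand), the precursor subunit of the noncanonical branch, was sparse at 16.3 CPM (195 UMIs) in old tumour, 31.2 (399 UMIs) in old sham, 20.2 (225 UMIs) in young tumour and 15.6 (215 UMIs) in young sham. Old sham stood above the others here as well, with a ratio of 1.99 (1.69 to 2.36) over young sham and of 0.522 (0.437 to 0.621) for old tumour over old sham. Nfkb2 overlaps AC114539.1 and Psd on the other strand in the GENCODE annotation, and whether strand was used in counting is not given in the sources used here, so its counts may hold reads of those genes.

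Relb (ENSMUSG00000002983, chromosome 7, 19606217 to 19629438, minus strand), the partner of Nfkb2 in that branch, was at 28.1 CPM in old tumour microglia, 40.9 in old sham, 32.6 in young tumour and 32.1 in young sham, while all of its ratios lay within 1.5-fold, the one nearest to it being 0.687 (0.597 to 0.789) for old tumour over old sham. Nfkb1 (ENSMUSG00000028163, chromosome 3, 135584655 to 135691547, minus strand), the precursor subunit of the canonical branch, was at 108 CPM in old tumour, 94.6 in old sham, 107 in young tumour and 108 in young sham. Its lowest value was therefore in the library where Tnf was highest, with ratios from 0.873 (0.808 to 0.942) for old sham over young sham to 1.14 (1.05 to 1.24) for old tumour over old sham. Nfkb1 overlaps the gene model Gm43430 on the same strand, and reads in the overlap could have been split or dropped. Rela, the remaining subunit and the usual partner of Nfkb1, lay within 1.5-fold in all 4 contrasts, at 63.3, 62.4, 60.8 and 65.0 CPM in old tumour, old sham, young tumour and young sham.

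The receptors were flat. Tnfrsf1a (ENSMUSG00000030341, chromosome 6, 125349362 to 125362484, plus strand), the death-domain receptor, was at 121 CPM in old tumour microglia, 116 in old sham, 121 in young tumour and 125 in young sham. Tnfrsf1b (ENSMUSG00000028599, chromosome 4, 145213463 to 145246870, minus strand), the receptor that lacks a death domain, was at 70.5 CPM in old tumour, 70.4 in old sham, 81.9 in young tumour and 85.6 in young sham. Both old libraries were a little below both young ones for Tnfrsf1b, with a ratio of 0.822 (0.753 to 0.898) for old sham over young sham and of 0.861 (0.783 to 0.946) for old tumour over young tumour.

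**Figure D2:**
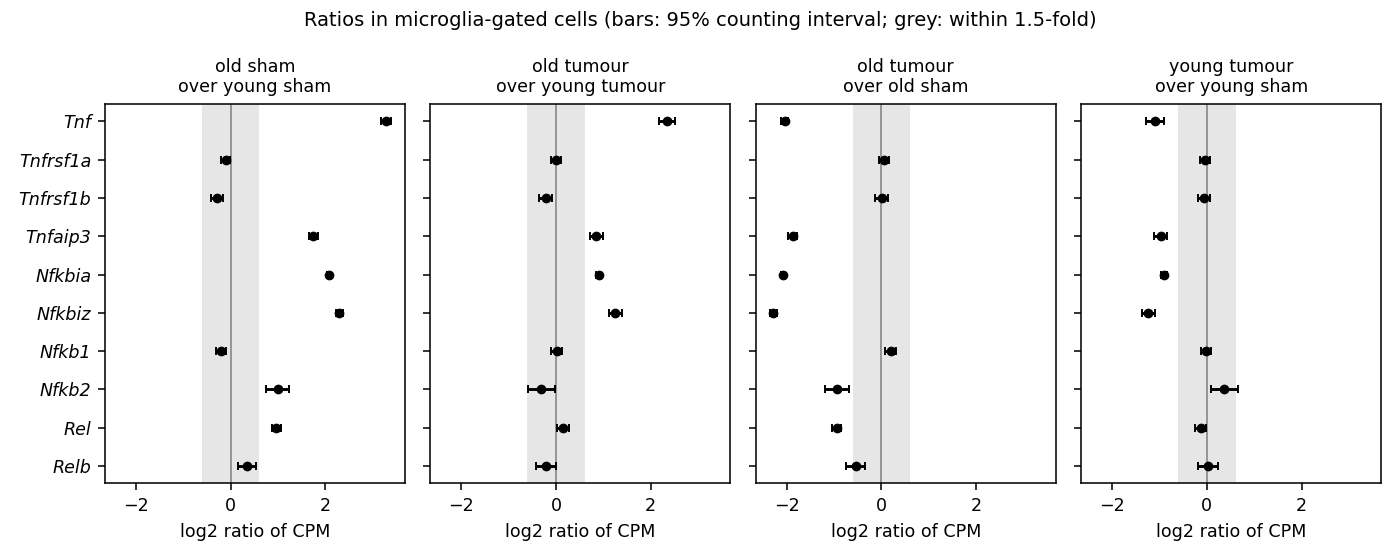
Log2 ratio of CPM in microglia-gated cells for each gene in the 4 contrasts, with bars for the 95% counting interval and a grey band for ratios within 1.5-fold. Tnf, Tnfaip3, Nfkbia and Nfkbiz lie outside the band in all 4 panels, and the receptors and Nfkb1 lie inside it in all 4.

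All 10 genes had at least 100 UMIs over the 4 libraries in the microglia gate, the minimum for counting a gene. For old sham over young sham 6 were higher and 0 lower, where 5.83% of 10992 genes were higher and 8.85% lower, and the median log2 ratio was 0.98 for the 10 genes and -0.08 for all genes. For old tumour over young tumour 4 were higher and 0 lower, against 3.36% and 4.16% of all genes, with medians of 0.09 and -0.03. In old tumour over old sham 6 were lower and 0 higher, against 3.73% and 6.2% of all genes, with medians of -0.94 and 0.05. In young tumour over young sham 4 were lower and 0 higher, against 2.66% and 4.45% of all genes, with medians of -0.10 and -0.02. The contrasts share libraries: old sham enters the first and the third, so a high old sham level appears in both.

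The difference between the ages is the tumour over sham ratio in old mice divided by that in young mice. It was 0.518 (0.451 to 0.594) for Tnf, 0.443 (0.424 to 0.464) for Nfkbia, 0.484 (0.435 to 0.537) for Nfkbiz and 0.537 (0.479 to 0.602) for Tnfaip3. Tumour over sham was thus lower in old mice for the ligand and the 3 inhibitors. Among the subunits it was 0.404 (0.313 to 0.520) for Nfkb2, 0.568 (0.510 to 0.633) for Rel, 0.676 (0.556 to 0.821) for Relb and 1.16 (1.04 to 1.29) for Nfkb1. For the receptors it was 1.07 (0.970 to 1.19) for Tnfrsf1a and 1.05 (0.921 to 1.19) for Tnfrsf1b, both with intervals that include 1.

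Markers of other cell types differed between libraries within the microglia gate. The 10 monocyte markers summed to 36.2 CPM in old tumour, 17.3 in old sham, 104 in young tumour and 33.1 in young sham, with F10 and Gm9733 at 0 in old tumour and Gm9733 at 0 in old sham. The 10 markers of border-associated macrophages summed to 142, 114, 315 and 184 CPM in the same order, with Lyve1 at 0 in all libraries but young sham. The 11 neutrophil markers summed to 178, 174, 165 and 290.0 CPM, most of it Csf3r, and the 12 T cell markers to 2.08, 1.80, 22.3 and 1.82 CPM. Old sham had the lowest monocyte and border-associated macrophage sums of the 4. Its T cell sum was close to that of young sham, and its neutrophil sum was above that of young tumour. The part of these cells in the values of any library was not tested.

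Early-response and dissociation genes also differed between the libraries. This list of 24 genes (Fos, Jun, Egr1, heat shock genes and others, none of them on another list) summed to 20298 CPM in old tumour microglia, 38062 in old sham, 16631 in young tumour and 31706 in young sham. Of the 24, 6 were higher and 3 lower in old sham over young sham, 6 higher and 0 lower in old tumour over young tumour, 0 higher and 16 lower in old tumour over old sham, and 0 higher and 21 lower in young tumour over young sham. Over all genes the shares higher and lower were 5.83% and 8.85%, 3.36% and 4.16%, 6.2% and 3.73%, and 4.45% and 2.66% in the same order of contrasts. Both tumour libraries were therefore below both sham libraries on this list, while for Tnf the old tumour library was above young sham. Nr4a1 (5.79-fold), Egr2 (2.92-fold) and Egr1 (2.29-fold) were the genes furthest above 1 in old sham over young sham, and the heat shock genes Hspa1b (0.188) and Hspa1a (0.274) and the flow-responsive factor Klf2 (0.604) the furthest below. In young tumour over young sham, Hspa1a (0.189), Klf4 (0.198) and Hspa1b (0.215) were the furthest below 1.

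Microglia were then compared at matched early-response level, counted as UMIs of those 24 genes among 1000 per cell. In cells with 0 to 7 such UMIs, 0.774% of old tumour, 1.36% of old sham, 0.620% of young tumour and 0.115% of young sham microglia had a Tnf UMI. With 20 to 43 such UMIs the shares were 13.2% (10.4 to 16.5), 36.6% (33.2 to 40.0), 2.93% (1.80 to 4.49) and 3.84% (2.62 to 5.41). Within this class old sham stayed above old tumour, and both old libraries stayed above both young ones, which overlapped. With 44 to 158 such UMIs the shares were 15.04%, 30.4%, 5.88% and 5.99% in the same order. The class with the most early-response UMIs held 15.1% of old tumour, 41.3% of old sham, 10.0% of young tumour and 30.3% of young sham microglia.

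**Figure D3:**
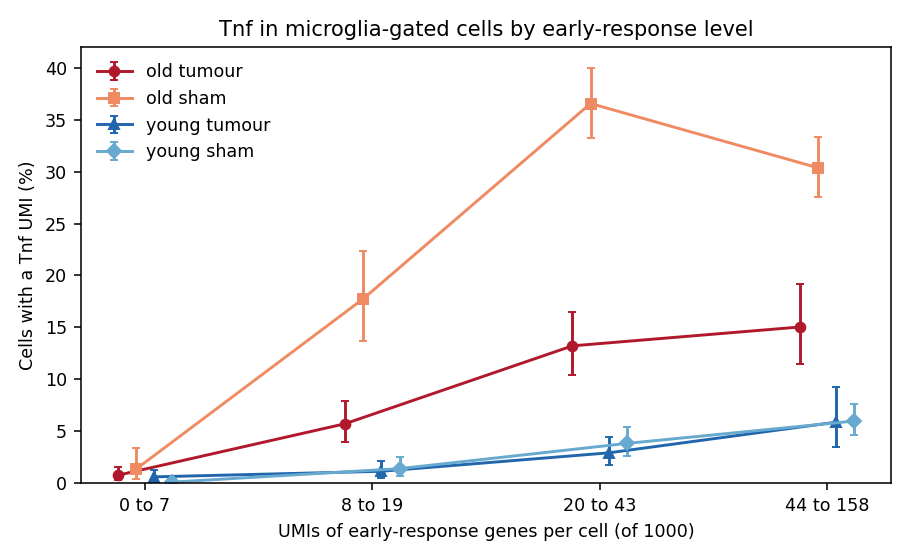
Share of microglia-gated cells with a Tnf UMI (y axis, %) by the number of early-response UMIs per cell (x axis, of 1000 UMIs), with 1 line per library and bars for exact 95% binomial intervals. The old sham line lies highest from 8 UMIs upward, old tumour lies between, and the 2 young lines overlap.

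In cells at or below the median early-response level of all libraries (1497 old tumour, 616 old sham, 1907 young tumour and 1647 young sham cells), Tnf was at 36.1 CPM in old tumour, 149 in old sham, 10.5 in young tumour and 12.8 in young sham. The log2 ratio there was 3.55 for old sham over young sham, 1.78 for old tumour over young tumour and -2.05 for old tumour over old sham, against 3.29, 2.34 and -2.05 in all microglia. For young tumour over young sham it was -0.28, against -1.09 in all microglia, so that this contrast was within 1.5-fold in cells of low early-response level. Nfkbia, Tnfaip3 and Nfkbiz had log2 ratios of 0.30, 0.10 and 0.79 there for young tumour over young sham, against -0.91, -0.98 and -1.24 in all microglia. For old tumour over young tumour the same genes stood at 0.23, 0.29 and 0.22 there, against 0.91, 0.85 and 1.25 in all microglia, so that among the 10 genes Tnf was the one counted as higher in that contrast. Rel and Nfkb2 were also within 1.5-fold there for old sham over young sham, at 0.32 and 0.34, and for old tumour over old sham, at -0.42 and -0.54. Nfkb2 had 15 UMIs in such cells of old tumour, 9 of old sham, 37 of young tumour and 19 of young sham, under the minimum of 100 over the libraries for counting, and stood past 1.5-fold there for old tumour over young tumour (-0.95) and young tumour over young sham (0.75). Some of these rest on few counts: Nfkbiz had 36 UMIs in young tumour and 18 in young sham cells of that kind.

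Within each library, microglia with and without a Tnf UMI differed in detection of the inhibitor genes. After thinning, Nfkbia was detected in 76.7% of 163 old tumour cells with Tnf and in 25.1% of 2207 without, in 89.8% of 667 and 60.9% of 1778 in old sham, in 43.4% of 53 and 22.1% of 2825 in young tumour, and in 70.1% of 107 and 28.4% of 3415 in young sham. Nfkbiz was detected in 29.4% of cells with Tnf and 7.11% of cells without it in old tumour, 49.2% and 29.5% in old sham, 20.8% and 4.32% in young tumour, and 21.5% and 9.40% in young sham. Detection of the inhibitors was higher beside Tnf in all 4 libraries. For Nfkb1 the shares did not all lie on one side: it was at 7.36% with Tnf and 10.9% without in old tumour, and at 13.2% and 10.8% in young tumour. Cells with Tnf also had more early-response UMIs, 35.7 against 19.4 per 1000 in old tumour, 43.0 against 36.6 in old sham, 33.1 against 17.4 in young tumour and 48.2 against 30.6 in young sham. Their mean depth before thinning was higher too, at 6667 against 4924 UMIs in old tumour and 4691 against 3842 in young sham. Cells of 1 library are not replicates, and no test was made.

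**Figure D4:**
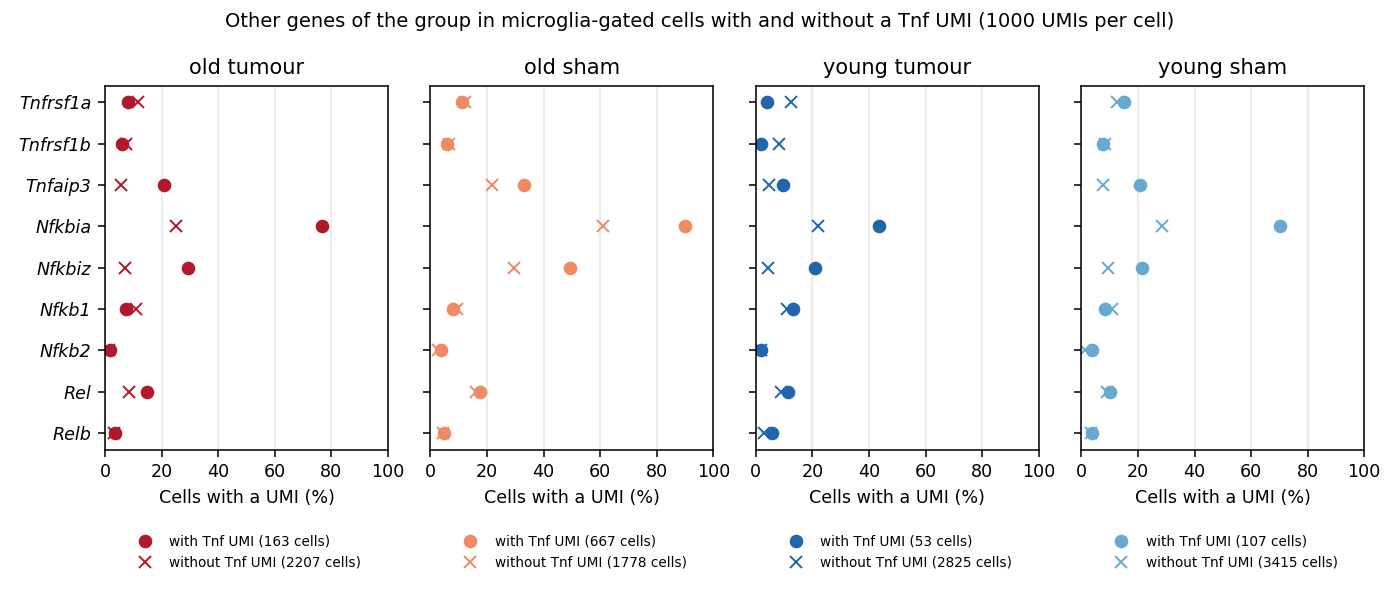
Share of microglia-gated cells with a UMI of each other gene (x axis, %, each cell thinned to 1000 UMIs), in 1 panel per library, with circles for cells with a Tnf UMI and crosses for cells without. Circles of Nfkbia lie at 76.7%, 89.8%, 43.4% and 70.1%, each to the right of its cross.

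Other genes of the pathway were described from lists that were chosen with earlier results of these data known. Of 15 receptor-proximal adaptors that passed the minimum (of 16), 1 was higher in old sham over young sham, Birc3, which encodes a ubiquitin ligase at the receptor and is itself an NF-kB target, at 43.5 CPM in old sham and 20.5 in young sham. The same gene was the 1 adaptor that was lower in old tumour over old sham, at 19.4 CPM against 43.5, and 0 of 15 passed the threshold in the other contrasts. Of 10 kinases (of 11), Map3k8, a kinase of the Toll-like receptor and Tnf response, was higher in old sham (47.7 CPM) than in young sham (27.0 CPM) and lower in old tumour (24.9 CPM) than in old sham, and Tab1 was lower in young tumour (5.47 CPM) than in young sham (8.87 CPM). The adaptors Ripk1 and Traf2 and the IκB kinase genes Chuk and Ikbkb stayed within 1.5-fold, with ratios between 0.855 and 1.13 over the 4 contrasts. Medians of the log2 ratio were 0.01 for adaptors and 0.00 for kinases in old sham over young sham, against -0.08 for all genes. Of all genes, 5.83% were higher and 8.85% lower in that contrast, and 3.36% and 4.16% in old tumour over young tumour. The shares were 6.2% and 3.73% in old tumour over old sham, and 4.45% and 2.66% in young tumour over young sham.

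Among other inhibitors and feedback genes (14 of 15 passed), 4 were higher and 0 lower in old sham over young sham, against 5.83% and 8.85% of all genes. They included Nfkbid, a nuclear IκB gene, at 58.3 CPM in old tumour, 154 in old sham, 19.7 in young tumour and 39.3 in young sham. Nfkbie, an IκB gene of the Nfkbia kind, was at 20.6, 43.3, 19.3 and 23.8 CPM in the same order, and Bcl3, a nuclear co-regulator, at 3.42, 5.78, 4.85 and 2.11 CPM. In old tumour over old sham 0 were higher and 3 lower, in old tumour over young tumour 1 was higher and 0 lower, and in young tumour over young sham 1 was higher (Bcl3) and 2 were lower (Nfkbid, and Zfp36 at 1226 against 2103 CPM). Over all genes 6.2% were higher and 3.73% lower, 3.36% higher and 4.16% lower, and 4.45% higher and 2.66% lower in those 3 contrasts. Zfp36 encodes a protein that destabilises Tnf messenger RNA.

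Of other TNF superfamily ligands and receptors, 12 of 24 passed, and 4 were higher and 0 lower in old sham over young sham, 3 and 0 in old tumour over young tumour, 1 and 2 in old tumour over old sham, and 2 and 1 in young tumour over young sham. The shares of all genes were 5.83% and 8.85%, 3.36% and 4.16%, 6.2% and 3.73%, and 4.45% and 2.66%, and the list's median log2 ratios of 0.18, -0.01, -0.01 and 0.11 stood against -0.08, -0.03, 0.05 and -0.02 for all genes. Tnfsf9, a co-stimulatory ligand, followed Tnf, at 11.6 CPM in old tumour, 40.4 in old sham, 3.14 in young tumour and 9.09 in young sham. Tnfsf8, another T cell ligand, and Tnfsf13b, the B cell survival factor, had another order: Tnfsf8 was at 15.4, 8.36, 3.68 and 1.60 CPM and Tnfsf13b at 76.0, 64.9, 33.5 and 20.7 CPM. Both were highest in old tumour and lowest in young sham.

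Known NF-kB target genes outside the pathway were counted over 29 genes that passed, of 36. This list too was chosen with earlier results of these data known. In old sham over young sham 26 were higher and 0 lower, with a median log2 ratio of 1.62 against -0.08 for all genes. In old tumour over young tumour 15 were higher and 2 lower (median 0.62 against -0.03). In old tumour over old sham 1 was higher and 17 lower (-0.89 against 0.05). In young tumour over young sham 7 were higher and 10 lower (-0.16 against -0.02). Over all genes the shares higher and lower were 5.83% and 8.85%, 3.36% and 4.16%, 6.2% and 3.73%, and 4.45% and 2.66% in that order. The cytokine genes Il1b and Il1a followed Tnf, Il1b at 123 CPM in old tumour, 429 in old sham, 56.6 in young tumour and 75.7 in young sham, while Il1a at 221, 806, 76.2 and 169 CPM. Marcksl1 (28.2, 159, 16.6 and 24.4 CPM) and Tnfaip2 (22.2, 74.3, 15.1 and 11.8 CPM) had the largest ratios of the list in old sham over young sham, 6.54 and 6.31.

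Some chemokine genes of the list went the other way in young mice. Ccl5, a T cell attracting chemokine, was at 13.9 CPM in old tumour microglia, 7.03 in old sham, 331 in young tumour and 4.29 in young sham, a ratio of 77.3 for young tumour over young sham. Ccl7 (3.59, 4.06, 18.6 and 0.945 CPM) and Cxcl10 (79.2, 110.4, 69.6 and 25.4 CPM) were also higher in young tumour than in young sham, whereas Cxcl2 (20.8, 29.8, 1.35 and 10.98 CPM) and Ier3 (267, 737, 60.7 and 240.2 CPM) were lower. T cell and monocyte markers in the gate were highest in the young tumour library, as given above, and their part in the Ccl5 value was not tested.

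Border-associated macrophages, the macrophages of perivascular spaces, meninges and choroid plexus, also carried Tnf. The gate held 123 old tumour, 97 old sham, 135 young tumour and 67 young sham cells, so counts were small. Tnf was at 73.6 CPM (44 UMIs) in old tumour, 171 (70 UMIs) in old sham, 26.7 (16 UMIs) in young tumour and 102 (27 UMIs) in young sham. Young tumour was the lowest here as in microglia, but young sham lay above old tumour. The ratio was 1.67 (1.06 to 2.71) for old sham over young sham, 2.75 (1.52 to 5.23) for old tumour over young tumour, 0.431 (0.289 to 0.637) for old tumour over old sham and 0.261 (0.132 to 0.503) for young tumour over young sham. Dendritic cell markers in the gate summed to 779 CPM in old tumour, 651 in old sham, 90.2 in young tumour but 174 in young sham. Their part in the age differences was not tested.

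In these macrophages 8 of the 10 genes reached 100 UMIs over the libraries, Nfkb2 and Relb being too sparse to count. For old sham over young sham 3 were higher (Tnf, Tnfaip3 and Rel) and 1 lower (Nfkb1), against 16.2% and 7.23% of 2587 genes. For old tumour over young tumour 2 were higher (Tnf and Nfkbiz) and 0 lower, against 6.26% and 4.02%. For old tumour over old sham 5 were lower (Tnf, Tnfaip3, Nfkbia, Nfkbiz and Rel) and 1 higher (Nfkb1), against 9.08% and 5.8%. In young tumour over young sham 2 were lower (Tnf and Nfkbiz) and 0 higher, against 7.11% and 9.97%. The Nfkb1 calls rest on 47 UMIs in old tumour and 18 in each sham library, and the interval of its ratio for old sham over young sham, 0.316 to 1.31, includes 1. Nfkbiz was at 463 CPM in old tumour, 790.4 in old sham, 266 in young tumour and 537 in young sham, in each library above its level in microglia. The early-response list summed to 30447, 33475, 20401 and 30732 CPM in old tumour, old sham, young tumour and young sham.

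Endothelial cells carried Nfkbia with little Tnf. Nfkbia was at 735 CPM in old tumour endothelial cells, 973 in old sham, 1073 in young tumour and 839 in young sham, within 1.5-fold in every contrast. Tnf was at 0.58 CPM (4 UMIs) in old tumour, 3.53 (15 UMIs) in old sham, 0.42 (2 UMIs) in young tumour and 0.96 (6 UMIs) in young sham. The endothelial Nfkbia level was above the microglia level in all libraries but old sham. In old sham over young sham 2 of the 9 genes that passed were higher (Nfkbiz and Tnfaip3) and 0 lower, against 5.84% and 4.23% of 10025 genes, and in old tumour over old sham 3 were lower (Nfkbiz, Tnfaip3 and Rel) and 0 higher, against 2.85% and 1.77%. In old tumour over young tumour 0 of 9 were higher or lower, against 4.28% and 2.62% of genes, and likewise 0 in young tumour over young sham, against 1.56% and 3.17%. Nfkbiz was at 6.67 CPM in old tumour, 17.4 in old sham, 6.86 in young tumour and 9.93 in young sham endothelial cells. The early-response list in that gate summed to 9999.6, 19309, 9232 and 8777 CPM in the same order, highest in old sham too.

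Oligodendrocytes were low for most of the pathway but had measurable Relb. Relb was at 16.7 CPM in old tumour, 17.9 in old sham, 11.1 in young tumour and 10.1 in young sham, with a ratio of 1.78 (1.36 to 2.36) for old sham over young sham and 1.51 (1.16 to 1.97) for old tumour over young tumour. Both old libraries were above both young ones for Relb and below both for Rel (3.95, 6.47, 8.77 and 9.91 CPM). Of the 6 genes that passed, 3 were higher and 1 lower in old sham over young sham, against 8.67% and 3.82% of 10361 genes, and 1 higher and 1 lower in old tumour over young tumour, against 6.46% and 3.83%. In old tumour over old sham 2 were lower (Nfkbiz and Rel) and 0 higher, against 2.88% and 1.15%, and in young tumour over young sham 1 was higher (Nfkbia) and 0 lower, against 2.45% and 2.48%. Tnf stood at 0.37 CPM in old tumour, 6.40 in old sham, 0.26 in young tumour and 0.43 in young sham oligodendrocytes. The old sham value rests on 1 cell, which held 64 of the 86 Tnf UMIs there, and the other libraries had 2 to 4 UMIs.

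Astrocytes held little of the pathway beyond Tnfrsf1a, Nfkbia and Nfkb1. Of the 7 genes that passed there, 1 was higher and 0 lower in old sham over young sham (Relb), against 4.39% and 3.25% of 11473 genes, and 0 were higher or lower in old tumour over young tumour, against 3.51% and 3.26%. For old tumour over old sham 1 was higher (Nfkb2, with an interval of 0.931 to 2.68 that includes 1) and 0 lower, against 3.05% and 2.32%, and in young tumour over young sham 1 was higher (Relb) and 0 lower, against 3.07% and 2.01%. Relb was at 6.74 CPM in old tumour, 5.96 in old sham, 8.13 in young tumour and 3.15 in young sham astrocytes, on 29 to 53 UMIs. Young sham was the lowest, with a ratio of 1.89 (1.14 to 3.17) for old sham over young sham and 2.58 (1.60 to 4.23) for young tumour over young sham.

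The receptor gene Tnfrsf1a was found in many cell types. Pericytes had 163 CPM in old tumour, 206 in old sham, 89.7 in young tumour and 186 in young sham, fibroblasts 91.4 to 107, endothelial cells 59.0 to 71.5 and astrocytes 45.0 to 58.1. Neutrophils, with enough cells in 2 libraries, had 303 CPM in old tumour (53 UMIs, interval 227 to 396) and 174 in young sham (96 UMIs, interval 141 to 212). The young sham pericyte gate held 12321 CPM of neutrophil markers, against 54.4 in old tumour, 0 in old sham and 26.2 in young tumour, and their part in its Tnfrsf1a level was not tested. In old tumour, the interval of pericytes was 114 to 226. Border-associated macrophages, at 124 to 140.4 CPM, had intervals that overlap those of microglia. Oligodendrocytes had 0.862 to 2.71 CPM. In choroid plexus epithelium the gene was at 16.3 CPM in old tumour, 18.4 in old sham, 35.2 in young tumour and 14.3 in young sham, a ratio of 2.46 (1.79 to 3.40) for young tumour over young sham. Dendritic cell markers in that gate were at 0.951 CPM in old tumour, 0.992 in old sham, 61.1 in young tumour but 0.427 in young sham. Microglia markers there were at 215, 209, 419.5 and 273 CPM in the same order, and the part of either list in the ratio was not tested. In ependymal cells that ratio was 1.67 (1.08 to 2.62).

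Outside microglia, Tnfrsf1b was at 60.1 to 75.7 CPM in border-associated macrophages, 14.1 to 19.3 in endothelial cells and 0.092 to 0.718 in oligodendrocytes (1 to 6 UMIs). In T cells, too few in young sham to count, it was at 29.9 CPM in old tumour (19 UMIs), 28.4 in old sham (10 UMIs) and 60.3 in young tumour (95 UMIs). T cells also carried Tnfaip3, at 67.8 CPM in old tumour, 207 in old sham and 62.3 in young tumour, and Tnf at 34.7, 28.4 and 9.53 CPM (22, 10 and 15 UMIs). Old sham stood apart in T cells for Tnfaip3 and Nfkbiz (14.2, 102 and 29.2 CPM) but not for Tnf.

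**Figure D5:**
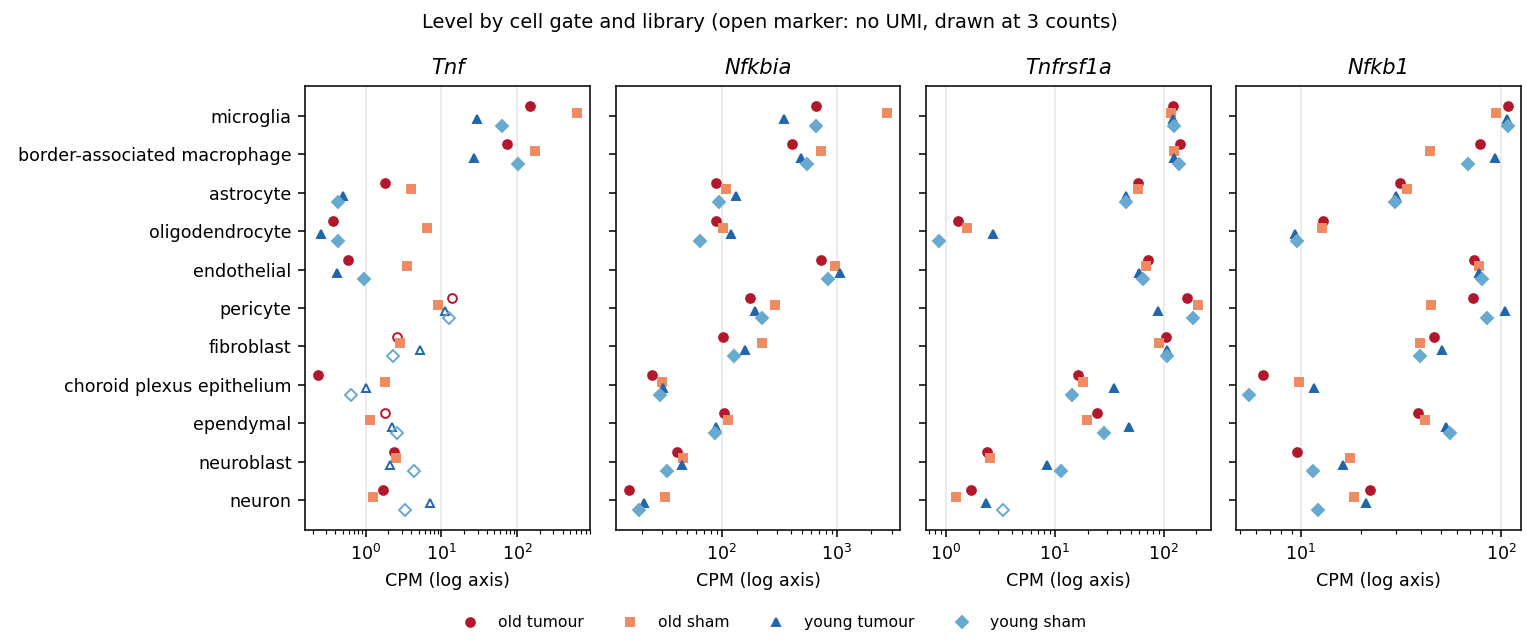
Level of Tnf, Nfkbia, Tnfrsf1a and Nfkb1 (CPM, log axis) in the 11 cell gates with at least 50 cells in every library, with 1 marker per library. Open markers stand for a count of 0, drawn at 3 counts. Filled markers of Tnf are above 20 CPM in microglia and border-associated macrophages and below it in the other 9 gates, whereas Tnfrsf1a and Nfkb1 extend over many. An open marker is a limit set by depth and not a level.

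Nfkb2 and Relb had their highest whole-library level in young tumour. A gate on Hmga2 and genes that go with it held 325 cells, all in the young tumour library and with a median depth of 26317 UMIs, and no cells in the other 3. Those cells had 106 CPM of Nfkb2 (1065 UMIs), 83.0 of Nfkb1 (830 UMIs) and 42.6 of Relb (426 UMIs), and 0.30 of Tnf (3 UMIs). They held 48.6% of the 2192 Nfkb2 UMIs of young tumour. Over all cells Nfkb2 was at 9.65 CPM in old tumour, 12.7 in old sham, 34.9 in young tumour and 11.1 in young sham, while young tumour was at 21.3 CPM without that gate. Relb over all cells was at 14.4, 20.2, 28.5 and 16.1 CPM in the same order, and at 25.9 CPM in young tumour without it. Cells outside any gate held 24.1% of the Nfkb2 UMIs and 27.9% of the Relb UMIs of young tumour. The levels of 21.3 and 25.9 CPM still include these ungated cells, and their part in the height of young tumour was not tested.

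Over whole libraries, where fewer cells of a type and less RNA per cell cannot be told apart, Tnf had the order of libraries seen in microglia. It was at 31.3 CPM (2024 UMIs) in old tumour, 153 (8260 UMIs) in old sham, 8.95 (562 UMIs) in young tumour and 18.4 (999 UMIs) in young sham over all kept cells. Microglia-gated cells held 88.1%, 95.2%, 58.4% and 86.6% of those UMIs, and cells outside any gate held 30.2% in young tumour and 1.92% to 6.77% in the other libraries. Nfkbia was less tied to microglia, which held 42.4% of its UMIs in old tumour, 77.0% in old sham, 20.9% in young tumour and 46.2% in young sham, with endothelial cells at 27.4%, 9.00%, 27.8% and 26.9%. Its ratio for old tumour over young tumour was 0.966 (0.946 to 0.985) over the library, against 1.87 in microglia. In the same contrast Nfkb1 was at 0.691 (0.659 to 0.724) over the library, against 1.01 in microglia, and Rel at 0.759 (0.712 to 0.810), against 1.11.

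The genes whose level over gates and libraries was most like that of Tnf were Ccl4 (Pearson r = 0.90), Ccl3 (0.88), Pik3cg (0.87), Cd200r1 (0.85) and Plek (0.85), over 57 gate and library points from 18 gates on log2(CPM + 1). Among the other 9 genes of the group, Nfkbiz (0.83), Tnfrsf1b (0.80) and Tnfaip3 (0.79) were closest to Tnf, and Nfkb2 (0.24) was furthest. These points share libraries and cell gates and differ in depth, so the values describe where the genes were found. Ccl4 was at 1459 CPM in old tumour microglia, 3662 in old sham, 530 in young tumour and 1117 in young sham, the order of Tnf, while Pik3cg, a kinase of leukocytes, was at 116, 102, 114 and 130.5 CPM.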

How the data were processed

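The deposited values are counts that were not normalized: UMIs for 32285 genes in every barcode of 4 libraries, made with a droplet 3' kit per the labels. Per the submitters' processing notes, mm10, Cell Ranger 3.0.2 and Seurat 2.3.4 were used, while Cell Ranger 6.1.0 stands in the matrix headers, a difference that was not resolved. The strain field of the labels differs in its last digit between samples while the series' design names C57BL/6, which is used here. Of 32285 gene identifiers, 32158 were found in GENCODE M21 (GRCm38), the source of the positions.

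Barcodes were kept with at least 500 UMIs, 200 genes and at most 20% mitochondrial UMIs (44503 of 46097), and the cells with the highest Scrublet scores (scanpy 1.11.5) were removed at 0.8% per 1000 barcodes (4113 cells). A cell entered a gate with at least 4 markers of that type detected and a share of that list's markers at least 0.2 above the next type's. This scoring rule was set after seeing the data. Clusters (Leiden, resolution 1, 2000 variable genes, 30 components, 15 neighbours, igraph 0.11.9) served only as an alternative to the gates and to name where microglia lay.

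UMIs were summed per library and gate and divided by the gate's total (CPM). Exact conditional Poisson intervals are given for ratios, normal ones on the log scale for differences between ages, and for shares exact binomial intervals (scipy 1.17.1), at 95%, and a count of 0 allows up to 3 counts. No test was possible over samples, as each group is 1 library. Levels come from transcript ends and are compared within a gene. A gene was counted from 100 UMIs upward, summed over libraries in the gate. The ratio procedure was tested on simulated data. The gene group, the pathway lists and the comparisons were chosen with earlier results of these data known. Genes named from each list were the 3 with the largest ratio in each direction, of which those past 1.5-fold are given, for old over young sham and for young tumour over young sham, and for likeness to Tnf the 5 with the highest correlation. Others named in passing (Ripk1, Traf2, Chuk, Ikbkb) were chosen after their values were seen. Promoters were searched on both strands for the κB consensus, TGANTCA and TATAAA, whose matches did not overlap each other in the windows shown.

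Alternatives were median-of-ratios scaling, totals without mitochondrial and ribosomal protein genes, a mean over the CPM of single cells, thinning to 1000 UMIs, cells of low early-response level, a stricter cell filter (1000 UMIs, 10% mitochondrial), no doublet removal, a stricter gate (6 markers), clusters in place of gates, leaving out the 5 cells with the most UMIs of a gene, and no minimum count.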

Additional observations from a re-analysis of the deposited data

Results flagged for a closer look

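Several contrasts pointed in opposite directions in the 2 ages or in the 2 treatments, with counting intervals on opposite sides of 1 and at least 1 ratio past 1.5-fold. With 1 library per group the difference between the directions was not tested.

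Nfkb2 in microglia was lower in old tumour than in old sham (ratio 0.522, at 16.3 against 31.2 CPM) and above 1 in young tumour over young sham (1.29, at 20.2 against 15.6 CPM). By age, its ratio was 0.805 in old tumour over young tumour and 1.99 in old sham over young sham. Nfkbia in oligodendrocytes was at a ratio of 0.864 in old tumour over old sham and 1.88 in young tumour over young sham, and at 0.739 in old tumour over young tumour and 1.61 in old sham over young sham. In fibroblasts, Nfkbia was at a ratio of 0.639 in old tumour over young tumour (102 against 159 CPM) and 1.74 in old sham over young sham (222 against 127 CPM).

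Choroid plexus epithelium gave the other such values. Nfkb1 there was at a ratio of 0.667 in old tumour over old sham and 2.09 in young tumour over young sham, and at 0.56 in old tumour over young tumour and 1.76 in old sham over young sham, on 82, 59, 34 and 26 UMIs in old tumour, old sham, young tumour and young sham. Relb there was at a ratio of 0.516 in old tumour over old sham and 2.11 in young tumour over young sham. In young tumour 1 choroid plexus cell held 12 of the 34 Nfkb1 UMIs. Dendritic cell markers in that gate were at 61.1 CPM in young tumour against 0.427 in young sham, and their part in these values was not tested.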

How the results depend on the processing

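No paired analysis was possible because each group has 1 library and the groups share only the number 1. The log2 ratio of Tnf in microglia kept its direction under every alternative run. It moved beyond its counting interval to 3.41 for old sham over young sham and -2.22 for old tumour over old sham with the mean of each cell's CPM, to 3.41 and -2.22 with thinning, and to 3.56 and -2.14 without the 5 cells with the most Tnf UMIs. In cells of low early-response level it moved to 3.55 for old sham over young sham, 1.78 for old tumour over young tumour and -0.28 for young tumour over young sham, and the number of genes past 1.5-fold was 1 in the last 2 of these contrasts (Tnf for old over young tumour, Nfkbiz for young tumour over young sham), against 4. These counts leave out Nfkb2, which stood at -0.95 and 0.75 on 9 to 37 UMIs per library, under the minimum for counting. Of all genes, 7.51% and 7.11% were past 1.5-fold in those 2 contrasts in all microglia, and 5.53% and 4.3% in cells of low early-response level. In that setting 3 log2 ratios for young tumour over young sham that were past 1.5-fold in all microglia changed sign. They moved to 0.10 for Tnfaip3, 0.30 for Nfkbia and 0.79 for Nfkbiz. Rel, within 1.5-fold in both, also changed direction, from a ratio of 0.912 to 92.8 CPM in young tumour against 89.9 in young sham. The cause was not tested, and the setting keeps 5667 of 11662 microglia. Of 360 alternative values of the other 9 genes, 309 moved by less than their counting interval, and 12 crossed the 1.5-fold line, all in cells of low early-response level except Relb, at -0.59 for old tumour over old sham with median-of-ratios scaling. Other counts of genes past the fold were 4 to 7. The share of all genes past it there was 4.93% to 16.3%, and 29.2% to 34.2% with no minimum count. Depth limits the small gates most: border-associated macrophages of young sham had 27 Tnf UMIs.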
